A study of Homo sapiens with 4 samples.

Results

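The genes described here encode interleukin 1 ligands, their receptors, a receptor antagonist and one signalling kinase: IL1A, IL1B, IL18, IL33, IL1RN, IL1R1, IL1R2, IL1RAP, IL1RL1 and IRAK2. They are 10 of the 43714 genes listed in the count table, found by symbol through their Ensembl IDs. They were chosen by name with the differences between these same libraries already known, so their values below are a description and carry no test. Of the 10 genes, 8 had enough counts to enter the fit across all genes, and IL1RN and IL1R2 did not.

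The libraries came from MDA-MB-231, a human triple-negative breast cancer line that the labels class as mesenchymal. The cells had been transfected by lipofectamine with 7TGP, a plasmid in which 7 TCF binding sites drive EGFP when beta-catenin acts with TCF/LEF factors, and had been selected with 3 ug/mL puromycin for at least 5 passages. From this stock, 8 rounds of sorting and expansion gave a reporter-positive line, over 80% of it EGFP-positive, and a reporter-negative line, over 95% of it EGFP-negative. Both lines carry the vector and were grown in DMEM with 10% fetal bovine serum, and each gave 2 libraries made from 1 ug of total RNA under the same batch label. Each reporter state is thus 1 sorted line, so reporter state and whatever else sets the lines apart cannot be told apart. Whether the libraries within a line are separate cultures is not stated in the labels, and p-values measure only how far these libraries spread, which may be technical.

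Interleukin 1 alpha and beta are inflammatory cytokines made as precursors. Interleukin 1 beta needs cleavage, classically by caspase 1 in an inflammasome, while the alpha precursor is already active and can be released from damaged cells. Both bind the receptor encoded by IL1R1, which then recruits the accessory protein encoded by IL1RAP and, inside the cell, MYD88 and the IRAK kinases, leading to NF-kappaB and MAP kinase activity and to induction of chemokines, colony-stimulating factors and the interleukin 1 genes themselves. The antagonist encoded by IL1RN occupies the receptor without signalling, and the decoy receptor encoded by IL1R2 binds the ligand without a signalling domain.

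Total counts were 62539034 and 55894092 in the reporter-positive libraries and 63034563 and 58429705 in the reporter-negative libraries. Of the genes used to check the cell line, the mesenchymal gene VIM had a mean of 1300 CPM (counts scaled to library size) in reporter-positive and 2670 CPM in reporter-negative libraries, and PGR and CDH1 stayed under 1 CPM in both. From the same list, CD44 averaged 281 CPM in reporter-positive and 239 CPM in reporter-negative libraries, MSN 642 and 520 CPM, and AXL 795 and 798 CPM. VIM fell (edgeR adjusted p = 1.91e-07), CD44 and MSN rose (edgeR adjusted p = 0.0373 and 0.0142) and AXL did not pass. The hormone receptor gene ESR1 averaged 5.78 CPM in reporter-positive and 4.97 CPM in reporter-negative libraries, within a span shared with SYNE1, and ERBB2 averaged 64.1 CPM in reporter-positive and 81.1 CPM in reporter-negative libraries. The epithelial gene EPCAM averaged 4.58 CPM in reporter-positive and 4.66 CPM in reporter-negative libraries, and KRT18, whose span is shared with KRT8, 55.6 CPM in reporter-positive and 66.5 CPM in reporter-negative libraries. ERBB2 and KRT18 fell (edgeR adjusted p = 0.00108 and 0.0104), while ESR1, PGR, CDH1 and EPCAM did not pass. Myeloid cells are a common source of interleukin 1. Of their markers, CD163, AIF1, SPI1, C1QA and C1QB had at most 9 counts in any library, and PTPRC, CD14, LYZ, CSF1R and CD68 averaged at least 1 CPM. The summed level of the 12 myeloid markers analysed was 165 to 178 CPM in reporter-positive and 180 to 188 CPM in reporter-negative libraries. CSF1R made up most of it. The ribosomal protein pseudogene RPL7P1 overlaps CSF1R and had 97.0% of its count, so much of the CSF1R level may not be its own. LYZ and CD68 fell (edgeR adjusted p = 1.22e-05 and 1.31e-04). None of PTPRC, CD14, CSF1R, ITGAM and FCER1G passed, PTPRC and CD14 having log2 fold changes of 0.51 and 0.36. LYZ overlaps ENSG00000257764, which had 37.8% of its count, and CD68 overlaps ENSG00000264772, which had 1168% of its count. The 7 lymphocyte markers summed to at most 0.446 CPM in reporter-positive and 0.440 CPM in reporter-negative libraries. Those of mast cells and basophils summed to 0.763 to 0.780 CPM in reporter-positive and 0.441 to 0.456 CPM in reporter-negative libraries. Of these, CPA3 rose, with 19 and 15 counts in reporter-positive and 3 and 2 counts in reporter-negative libraries (edgeR adjusted p = 0.00322), KIT did not pass, and TPSAB1 and MS4A2 had at most 5 counts in any library. CPA3 overlaps ENSG00000240521, which had 231% of its count, so the rise may not be its own. Endothelial markers summed to 63.04 to 80.89 CPM in reporter-positive and 78.6 to 93.0 CPM in reporter-negative libraries. Most of this was PECAM1, with means of 67.4 CPM in reporter-positive and 81.0 CPM in reporter-negative libraries. The next, EMCN, averaged 2.39 CPM in reporter-positive and 2.38 CPM in reporter-negative libraries, and none of the endothelial markers passed. Fibroblast markers summed to 10.15 to 10.2 CPM in reporter-positive and 9.88 to 10.9 CPM in reporter-negative libraries. Of these, LUM was higher in reporter-positive libraries (edgeR adjusted p = 0.00557) and PDGFRB lower (edgeR adjusted p = 0.0428). PDGFRB averaged 5.96 CPM in reporter-positive and 7.59 CPM in reporter-negative libraries, and PDGFRA and DCN did not pass. The part of these markers in the results was not tested.

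Both interleukin 1 ligand genes were many times higher in the reporter-positive line, IL1B most of all. IL1B (ENSG00000125538, minus strand, chr2:112829751-112836903) had 1808 and 1401 counts in the reporter-positive libraries, against 90 and 109 counts in the reporter-negative libraries. Scaled for depth this was 28.8 and 26.7 CPM in reporter-positive libraries, against 1.42 and 1.77 CPM in reporter-negative libraries, a log2 fold change of 4.12 ± 0.12 (SE, n = 2 libraries per line) or 17.4-fold. The lower reporter-positive library was still far above the higher reporter-negative one. In bulk RNA, fewer cells expressing a gene and less of its RNA per cell cannot be told apart.

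IL1A (ENSG00000115008, minus strand, chr2:112773915-112784590), which encodes interleukin 1 alpha, had 901 and 729 counts in the reporter-positive libraries, against 202 and 192 counts in the reporter-negative libraries. Its level was 14.1 ± 0.31 CPM in reporter-positive libraries and 3.15 ± 0.039 CPM in reporter-negative libraries (SD, n = 2 each), a log2 fold change of 2.16 ± 0.12 (SE) or 4.48-fold. The groups did not overlap. With 2 libraries per line, genes without a difference can also separate in this way. The share of all genes that do so was not counted, so nothing is read from such a separation here or below. In the reporter-negative line IL1A had the higher count of the pair in both libraries, and in the reporter-positive line IL1B did.

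The antagonist gene in the same chromosomal cluster was close to absent in both lines. IL1RN (ENSG00000136689, plus strand, chr2:113107214-113134016) had 6 and 3 counts in the reporter-positive libraries, against 10 and 7 counts in the reporter-negative libraries. These sum to 9 counts (95% exact Poisson interval 4.12 to 17.1) in reporter-positive libraries and 17 counts (9.90 to 27.2) in reporter-negative libraries, and the intervals, which cover counting error only, overlap. A difference in IL1RN was not detectable at this depth, and the gene was not tested.

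The remaining ligand genes differed less. IL18 encodes interleukin 18, which like interleukin 1 beta is cleaved by caspase 1. IL18 (ENSG00000150782, minus strand, chr11:112143251-112164117) had 1044 and 846 counts in the reporter-positive libraries, against 788 and 697 counts in the reporter-negative libraries. Its mean level was 16.4 ± 0.34 CPM in reporter-positive and 11.9 ± 0.75 CPM in reporter-negative libraries (SD, n = 2 each), a log2 fold change of 0.46 ± 0.09 (SE). The groups did not overlap on the CPM scale. IL18 lies wholly inside a protein-coding gene on the opposite strand, ENSG00000255292, whose own count was 3686 and 3194 in reporter-positive and 2956 and 2646 in reporter-negative libraries, and reads of the pair cannot be told apart.

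IL33 encodes an alarmin held in the nucleus and bound, once released, by the IL1RL1 receptor. IL33 (ENSG00000137033, plus strand, chr9:6215786-6257983) had 11 and 7 counts in the reporter-positive libraries, against 12 and 10 counts in the reporter-negative libraries. Its log2 fold change was -0.18 ± 0.56 (SE), and the groups overlapped on the count scale.

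**Figure D1:**
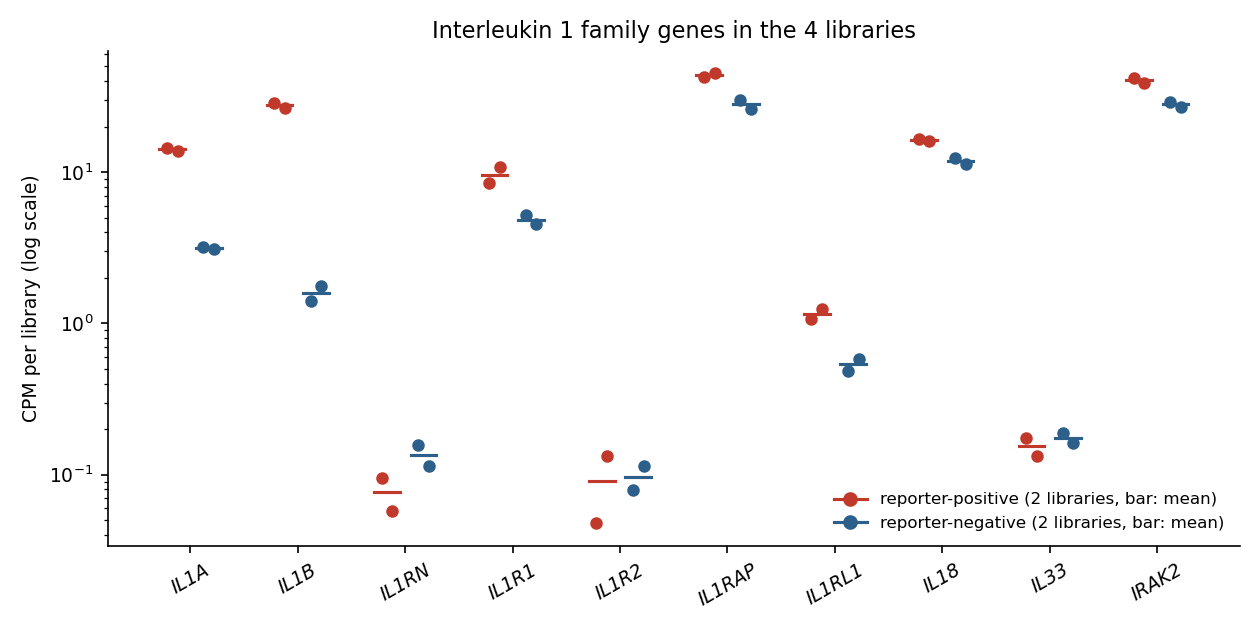
Level of each gene in CPM (log axis) in the 2 reporter-positive libraries (left of each pair) and the 2 reporter-negative libraries (right), with bars at the mean. IL1B sits at 28.8 and 26.7 CPM in reporter-positive and 1.42 and 1.77 CPM in reporter-negative libraries, the widest gap, while IL1RN, IL1R2 and IL33 stay under 0.2 CPM in both lines.

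Both partners of the signalling receptor were detected in both lines and were higher in the reporter-positive line. IL1R1 (ENSG00000115594, plus strand, chr2:102064544-102179874), the ligand-binding chain, had 530 and 568 counts in the reporter-positive libraries, against 330 and 278 counts in the reporter-negative libraries. Its level was 8.44 and 10.8 CPM in reporter-positive libraries, against 5.20 and 4.53 CPM in reporter-negative libraries, a log2 fold change of 0.98 ± 0.14 (SE) or 1.98-fold. The groups did not overlap. The antisense gene IL1R1-AS1, which overlaps the end of IL1R1, had 338 and 357 counts in reporter-positive and 198 and 199 counts in reporter-negative libraries, between 60.0% and 71.6% of the IL1R1 count in a library. With those counts taken off, IL1R1 kept 192 and 211 counts in reporter-positive and 132 and 79 counts in reporter-negative libraries, a log2 fold change of 1.07 ± 0.22 (SE). IL1R1-AS1 also reaches past the end of IL1R1, so taking off its whole count removes too much.

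IL1RAP (ENSG00000196083, plus strand, chr3:190514051-190659750) encodes the accessory chain that interleukin 1 and interleukin 33 receptors share. It had 2695 and 2363 counts in the reporter-positive libraries, against 1918 and 1614 counts in the reporter-negative libraries. The mean level was 44.0 ± 1.5 CPM in reporter-positive and 28.2 ± 2.8 CPM in reporter-negative libraries (SD, n = 2 each), a log2 fold change of 0.64 ± 0.08 (SE) or 1.56-fold. The groups did not overlap. IL1RAP also makes a soluble form without the membrane anchor, and counts per gene do not tell the forms apart.

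The decoy receptor gene was nearly silent in both lines. IL1R2 (ENSG00000115590, plus strand, chr2:101991844-102028544) had 3 and 7 counts in the reporter-positive libraries, against 5 and 7 counts in the reporter-negative libraries. The sums of 10 counts (95% exact Poisson interval 4.80 to 18.4) in reporter-positive and 12 counts (6.20 to 21.0) in reporter-negative libraries overlap widely, so no difference was detectable at this depth.

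IL1RL1 (ENSG00000115602, plus strand, chr2:102311502-102352037), the interleukin 33 receptor also called ST2, was scarce. It had 67 and 65 counts in the reporter-positive libraries, against 31 and 36 counts in the reporter-negative libraries, a log2 fold change of 1.10 ± 0.29 (SE) or 2.14-fold. The groups did not overlap. IL1RL1 lies almost wholly inside IL18R1 on the same strand, so nearly all its reads, over exons and introns, can count for both genes. Reads of the pair cannot be told apart there.

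IRAK2 (ENSG00000134070, plus strand, chr3:10164865-10243743) encodes a kinase-like protein that joins MYD88 and IRAK4 in the receptor complex and carries the signal on to TRAF6. It had 2643 and 2035 counts in the reporter-positive libraries, against 1835 and 1668 counts in the reporter-negative libraries. The mean level was 40.5 ± 2.3 CPM in reporter-positive and 28.0 ± 1.2 CPM in reporter-negative libraries (SD, n = 2 each), a log2 fold change of 0.53 ± 0.08 (SE) or 1.44-fold. The groups did not overlap.

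Of the 8 genes tested by edgeR, 7 passed at a Benjamini-Hochberg adjusted p under 0.05 on the higher side and 0 on the lower side, and IL33 did not pass. Across the 30952 genes tested, 11.6% were called higher and 10.9% lower in reporter-positive libraries. Because the genes were selected on this comparison, nothing is read from their count. Scaling by total counts in place of TMM gave 2270 higher and 4032 lower genes over the whole table, so that 36.0% of calls were higher, against 51.5% with TMM.

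Levels can be set against each other only per length, here as CPM per kb of exon. In reporter-positive libraries IRAK2 came first at 11.6, then IL1B at 8.97, IL1A at 6.65, IL18 at 6.23, IL1RAP at 3.81, IL1R1 at 1.36 and IL1RL1 at 0.201 CPM per kb of exon. In reporter-negative libraries IRAK2 again came first at 8.05, then IL18 at 4.52, IL1RAP at 2.44, IL1A at 1.48, IL1R1 at 0.686, IL1B at 0.515 and IL1RL1 at 0.0935 CPM per kb of exon. IL1B thus stood second among the 10 genes in the reporter-positive line and sixth in the reporter-negative line. IL33, IL1R2 and IL1RN filled the last places in both lines at under 0.06 CPM per kb of exon. Among neighbours in these orders, the libraries of IL1R2 overlapped those of IL33 and of IL1RN in the reporter-positive line, and those of IL1RN in the reporter-negative line. Counts include intron reads, and the order differed per kb of gene span. On that scale IL1B came first in reporter-positive libraries at 3.88 CPM per kb, followed by IL1A at 1.32, IL18 at 0.785 and IRAK2 at 0.513 CPM per kb. In reporter-negative libraries IL18 came first at 0.569 CPM per kb of span, followed by IRAK2 at 0.355, IL1A at 0.295 and IL1B at 0.223 CPM per kb.

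The promoters of IL1A and IL1B, the pair with the widest gap between lines, are shown with that of the near-silent IL1RN, as the 250 bases before a RefSeq transcript start on GRCh38.p14. The IL1A window is chr2:112784494-112784743 and the IL1B window chr2:112836780-112837029, both on the minus strand, and the IL1RN window is chr2:113127348-113127597 on the plus strand, the third of 3 windows for that gene. The IL1A and IL1B windows run partly into the gene spans given above, and the IL1RN window lies wholly inside its span. Of the starts shown, that of IL1B alone opened a transcript of GENCODE release 29. Capitals mark matches on either strand to the AP-1 motif TGANTCA or the C/EBP motif TTNNGNAA, motifs of factor families known to act at cytokine genes.
IL1A: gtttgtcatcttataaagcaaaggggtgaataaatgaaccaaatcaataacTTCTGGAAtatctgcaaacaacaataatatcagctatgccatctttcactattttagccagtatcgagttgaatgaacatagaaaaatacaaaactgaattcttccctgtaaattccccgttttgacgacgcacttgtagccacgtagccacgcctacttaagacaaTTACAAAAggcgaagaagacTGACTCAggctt
IL1B: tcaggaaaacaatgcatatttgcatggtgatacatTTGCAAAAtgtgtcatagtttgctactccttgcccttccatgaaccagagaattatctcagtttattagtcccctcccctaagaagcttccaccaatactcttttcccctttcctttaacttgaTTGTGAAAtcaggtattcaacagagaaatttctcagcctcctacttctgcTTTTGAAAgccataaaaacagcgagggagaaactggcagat
IL1RN: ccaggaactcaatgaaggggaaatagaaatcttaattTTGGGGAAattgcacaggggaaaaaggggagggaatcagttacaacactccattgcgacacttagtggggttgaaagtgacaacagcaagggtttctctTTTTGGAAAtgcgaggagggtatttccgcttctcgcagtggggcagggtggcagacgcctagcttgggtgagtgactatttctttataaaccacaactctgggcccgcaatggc

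The IL1A window held the AP-1 letters 12 to 6 bases before the start and C/EBP letters at 199 to 192 and 32 to 25 bases before it. The IL1B window held no AP-1 match and 3 C/EBP matches, at 215 to 208, 91 to 84 and 41 to 34 bases before the start. The IL1RN window held 3 C/EBP matches, of which the pair at 114 to 107 and 113 to 106 bases before the start overlap, and no AP-1 match. Windows not shown also held AP-1 letters: the first IL1RN window at 223 to 217 bases before its start, the first IL1RL1 window at 191 to 185, and the second IL1A window at 55 to 49. The second IL1A window overlaps the one shown, and its further match at 105 to 99 is the same site as the one at 12 to 6 in the window shown. RefSeq windows were matched for 9 of the 10 genes, 18 windows in all, some of which overlap, and IL18 had no entry.

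Over those 18 windows, AP-1 letters were found in 4 and C/EBP letters in 10, against 6.57% and 33.2% of the 35114 promoter windows of all genes. Some sites count more than once: an AP-1 and a C/EBP site of IL1A and a C/EBP site of IL1RN each lie in a pair of overlapping windows. The NF-kappaB consensus was found in 0 of the 18 windows and the TCF/LEF core CTTTGA in 0, against 5.21% and 11.2% of all windows. With a wider NF-kappaB pattern, GGG and CC with any 5 bases between them, 6 windows of 5 genes held a match, against 54.4% of all windows. These are matches of letters in short windows and not binding sites, and a missing match says only that the letters are not in that window.

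Other genes of the family were given by lists that, like the set itself, were drawn up with results of these libraries known. Of the other interleukin 1 family ligand genes, 5 were analysed and none had enough counts for the test. The highest of them, IL37, had 10 and 6 counts in reporter-positive and 6 and 6 counts in reporter-negative libraries, followed by IL36G with 5 and 4 counts in reporter-positive and 5 and 3 counts in reporter-negative libraries.

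Of 7 further receptor and binding protein genes, 6 were tested, of which 2 rose, 1 fell and 3 did not pass, with a median log2 fold change of 0.07 against -0.00 over all genes. Across all genes tested, 11.6% rose and 10.9% fell. SIGIRR, a receptor family member known to restrain interleukin 1 receptor signalling, had 282 and 155 counts in reporter-positive libraries, against 975 and 913 counts in reporter-negative libraries. It fell by 2.01 on the log2 scale (SE 0.15; edgeR adjusted p = 1.18e-07), with no overlap between the lines. IL1RL2, the interleukin 36 receptor, had 72 and 38 counts in reporter-positive libraries, against 18 and 20 counts in reporter-negative libraries, and rose with a log2 fold change of 1.62 ± 0.36 (SE; edgeR adjusted p = 0.00197).

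IL18R1, which encodes the ligand-binding chain of the interleukin 18 receptor, had 91 and 83 counts in reporter-positive libraries, against 47 and 56 counts in reporter-negative libraries. It rose with a log2 fold change of 0.87 ± 0.25 (SE; edgeR adjusted p = 0.0159), but between 64.3% and 78.3% of its count in a library can be IL1RL1. With the IL1RL1 counts taken off, 24 and 18 counts were left in reporter-positive and 16 and 20 counts in reporter-negative libraries, and IL18R1 no longer passed (log2 fold change 0.33, edgeR adjusted p = 0.668). It also missed the threshold when the reporter-negative library numbered 1 was left out (adjusted p = 0.136) or the reporter-positive one numbered 2 (adjusted p = 0.0568), which left 1 gene of the list called higher. Its partner chain gene IL18RAP had at most 5 counts in any library.

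**Figure D2:**
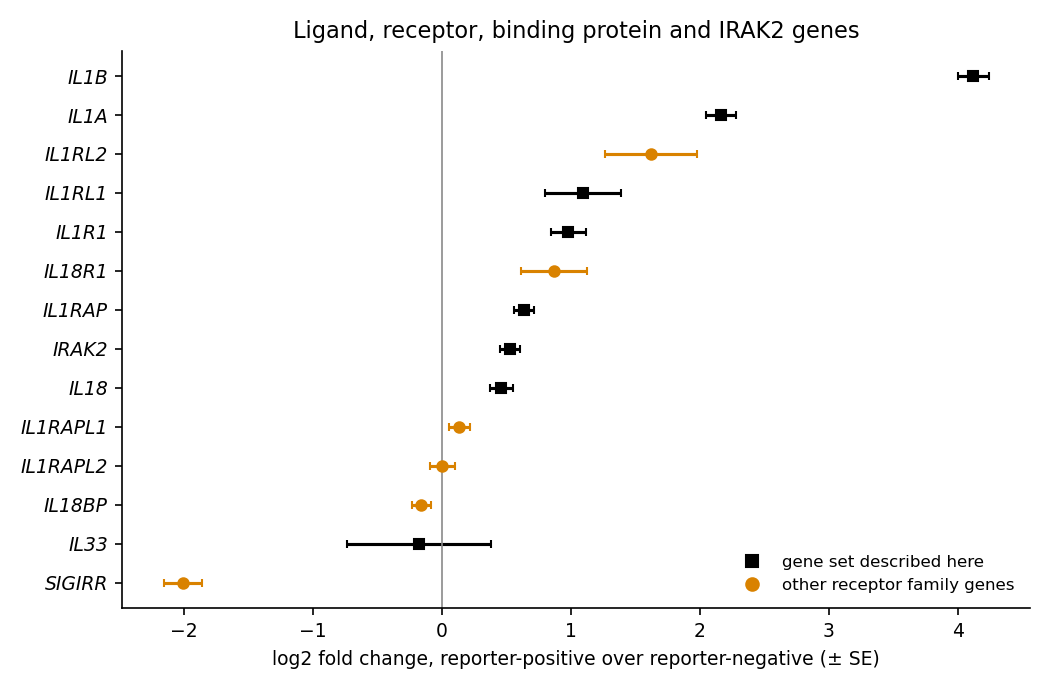
Log2 fold change, reporter-positive over reporter-negative, with its SE, for the 8 tested genes of the set (squares) and 6 other receptor and binding protein genes (circles). IL1B at 4.12 and IL1A at 2.16 stand highest and SIGIRR at -2.01 lowest, with IL33 at -0.18 carrying the widest error.

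Among 29 genes of interleukin 1 receptor signalling, 5 rose, 5 fell and 19 did not pass, with a median log2 fold change of 0.00. Over all genes tested, 11.6% rose and 10.9% fell. In the core relay MYD88, the adaptor, averaged 25.0 ± 1.1 CPM in reporter-positive and 26.0 ± 0.33 CPM in reporter-negative libraries (SD, n = 2 each), and did not pass, nor did IRAK1, IRAK4 or TRAF6. MAP2K3, which activates p38 MAP kinase, rose with a log2 fold change of 0.78 ± 0.07 (SE; edgeR adjusted p = 8.55e-08). PELI2, a Pellino ubiquitin ligase that acts on IRAK proteins, fell by 1.55 on the log2 scale (SE 0.12; edgeR adjusted p = 7.66e-09), while its relative PELI1 rose by 0.63 (SE 0.08; adjusted p = 7.21e-06). IRAK3, which encodes a kinase-dead brake on the pathway, rose by 0.49 on the log2 scale (SE 0.08; edgeR adjusted p = 7.28e-05). The pseudogene RBMS1P1 overlaps IRAK3 and had 47.5% of its count. The number of falls was 2 without the reporter-negative library numbered 1 and 8 without the reporter-positive library numbered 2, and the number of rises was 3 without the reporter-negative library numbered 2.

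Among 22 genes of precursor maturation and release, 6 rose, 5 fell and 11 did not pass, with a median log2 fold change of 0.08. The shares over all genes tested were 11.6% rising and 10.9% falling. CASP1, the protease that cleaves the interleukin 1 beta and interleukin 18 precursors, had 1062 and 870 counts in reporter-positive libraries, against 377 and 352 counts in reporter-negative libraries. It rose with a log2 fold change of 1.52 ± 0.10 (SE; edgeR adjusted p = 4.04e-10). CASP4, an inflammatory caspase that senses lipopolysaccharide in the cytosol, rose by 1.00 on the log2 scale (SE 0.07; edgeR adjusted p = 2.41e-09). CARD16 and CARD18 encode short proteins related to the caspase 1 recruitment domain, and reads of such near copies may be shared with CASP1. CARD16 rose by 1.34 (SE 0.11; edgeR adjusted p = 2.42e-08) and CARD18 fell by 0.81 on the log2 scale (SE 0.12; adjusted p = 3.67e-05). The inflammasome sensor gene NLRP3 averaged 5.86 ± 0.29 CPM in reporter-positive and 5.50 ± 0.027 CPM in reporter-negative libraries (SD, n = 2 each) and did not pass, nor did GSDMD, which encodes the pore protein gasdermin D. PYCARD fell by 0.51 on the log2 scale (SE 0.17; edgeR adjusted p = 0.0366). With the counts of the overlapping PYCARD-AS1 taken off, PYCARD no longer passed (log2 fold change -0.32, edgeR adjusted p = 0.436). The number of falls was 2 without either reporter-negative library.

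Among 25 genes known to be induced by interleukin 1, 20 rose, 1 fell and 4 did not pass, with a median log2 fold change of 1.47 against -0.00 over all genes. For comparison, 11.6% of all genes tested rose and 10.9% fell. That many inflammatory genes are higher in the reporter-positive line was known from these libraries when the list was drawn up, so the count is not independent evidence. CXCL8, a neutrophil chemokine, averaged 395 ± 56 CPM in reporter-positive and 29.8 ± 0.21 CPM in reporter-negative libraries (SD, n = 2 each; log2 fold change 3.73, edgeR adjusted p = 4.86e-15). CXCL1, a chemokine of the same class, averaged 127 ± 9.8 CPM in reporter-positive and 13.4 ± 1.0 CPM in reporter-negative libraries (log2 fold change 3.24, edgeR adjusted p = 2.40e-16), and reads of its near copies CXCL2 and CXCL3 may be shared with it. The colony-stimulating factor genes CSF3 and CSF2 rose by 2.55 and 1.81 on the log2 scale (edgeR adjusted p = 1.25e-14 and 6.94e-13). NFKBIZ, which encodes a nuclear regulator of NF-kappaB, fell by 0.36 on the log2 scale (edgeR adjusted p = 7.68e-04), a call lost without the reporter-negative library numbered 1 (adjusted p = 0.0978).

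**Figure D3:**
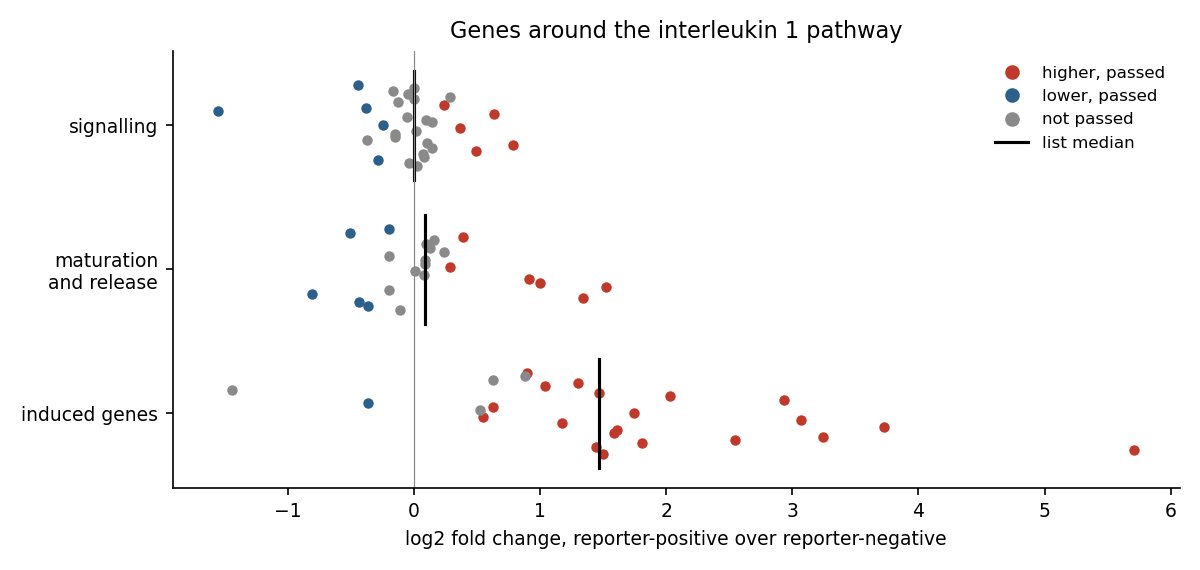
Log2 fold change, reporter-positive over reporter-negative, of the tested genes of 3 lists, coloured by whether they passed the test, with a bar at each list's median. The medians are 0.00 for signalling, 0.08 for maturation and release and 1.47 for induced genes, the right-most point being CCL2 at 5.71.

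IL1A, IL1B and IL1RN lie within 360.102 kb of each other on chromosome 2, and among the tested genes of this stretch IL1A and IL1B alone passed. Of 9 other genes listed between IL1A and IL1RN, 1 had enough counts to test, the pseudogene XIAPP3, and it did not pass. None of the 9 had more than 27 counts in any library. On the IL1A side, 4 of the nearest 5 protein-coding genes tested rose and 1 fell, where 11.6% of all genes tested rose and 10.9% fell. NT5DC4 and CKAP2L, a pair of those that rose, overlap and share reads. The nearest gene, CKAP2L, rose by 0.42 on the log2 scale (SE 0.08; edgeR adjusted p = 7.84e-04). On the IL1RN side 0 of 5 rose and 2 fell, with the nearest, PSD4, falling to 11.3 and 10.9 CPM in reporter-positive libraries, against 14.2 and 13.4 CPM in reporter-negative libraries (log2 fold change -0.31, edgeR adjusted p = 0.0182). No neighbour that passed differed by 2-fold. Without the reporter-negative library numbered 2 the neighbours called were 1 higher and 1 lower, without the reporter-negative library numbered 1 there were 0 lower, and without the reporter-positive library numbered 2 there were 2 higher.

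The receptor genes IL1R2, IL1R1, IL1RL2, IL1RL1, IL18R1 and IL18RAP lie in a second stretch of chromosome 2, 460.722 kb long. Within it the 3 tested genes outside the set, IL1R1-AS1, IL1RL2 and IL18R1, all rose, although IL1R1-AS1 and IL18R1 share reads with IL1R1 and IL1RL1. The share that rose over all genes tested was 11.6%. On the IL1R2 side 0 of 5 neighbours passed, the nearest being MAP4K4 with a log2 fold change of -0.06 ± 0.07 (SE; edgeR adjusted p = 0.660). Beyond IL18RAP 0 of 4 tested neighbours passed, the nearest being SLC9A4 with 16 and 9 counts in reporter-positive and 8 and 23 counts in reporter-negative libraries (adjusted p = 0.854). IL1R2, at one end of the stretch, and IL18RAP, at the other, were nearly silent in both lines.

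**Figure D4:**
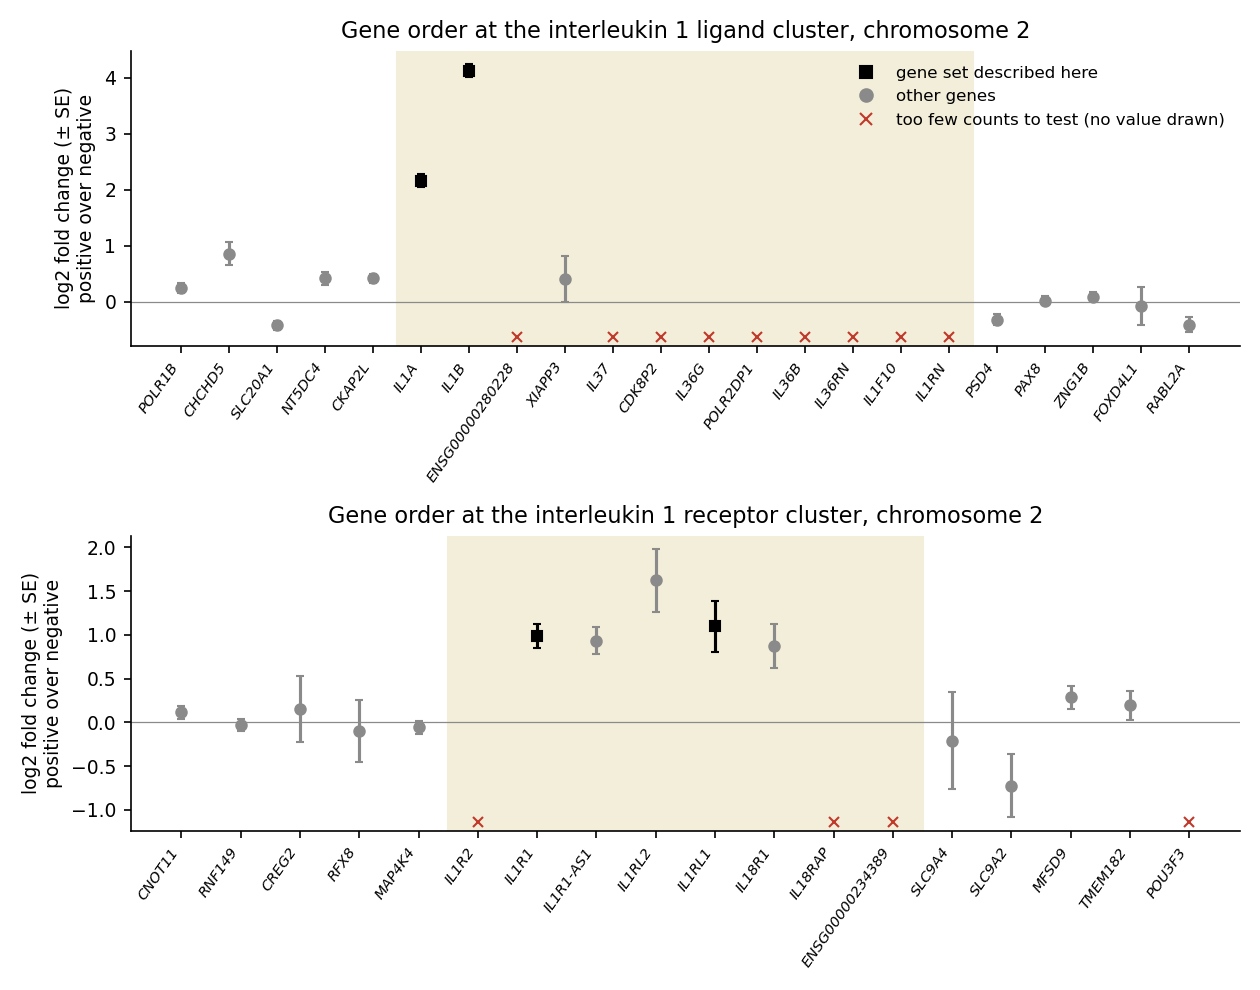
Log2 fold change, reporter-positive over reporter-negative, with its SE, for genes in their order along chromosome 2 at the ligand cluster (top) and the receptor cluster (bottom), shaded, with 5 protein-coding neighbours on each side, and crosses on the axis for genes with too few counts to test. IL1A at 2.16 and IL1B at 4.12 stand highest, at the IL1A end of the ligand cluster, and the tested genes inside the receptor cluster lie between 0.87 and 1.62.

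The genes whose profile over the 4 libraries was most like that of IL1B were found by the distance between centred profiles of log2 of CPM plus 0.5 among 21694 genes of at least 1 CPM on average. They were ANKRD30A at a distance of 0.0486, MAGEA3 at 0.129, TGM4 at 0.141, MIR4500HG at 0.196 and LINC02864 at 0.203, against a median distance of 3.77 over all genes ranked. The closest, ANKRD30A, had 2872 and 2236 counts in reporter-positive and 168 and 197 counts in reporter-negative libraries. Within the set, IL1A ranked 102 at a distance of 1.77 and IL1R1 ranked 448. Over 4 libraries of 2 lines this distance mainly follows the difference between the lines, the comparison on which the set was chosen. Whether these genes vary together with IL1B beyond that difference was not tested. The added 0.5 CPM narrows the gap of genes that are low in a line: MAGEA3, with 419 and 339 counts in reporter-positive and 2 and 5 counts in reporter-negative libraries, ranked close to IL1B although its fitted log2 fold change was 6.82.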

How the data were processed

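The authors deposited raw read counts per Ensembl gene ID, with 1 column for each of the 4 libraries, and 0 columns of samples were left unused. Per the submitters' processing notes, the build was hg19 and the tools named, with no role, are HISAT2, Bowtie2 and DESeq2. How reads were counted, on which annotation and strand, is not given in the sources used here. Each of the 43714 IDs is in GENCODE release 29 on GRCh38, from which positions and exon lengths were taken. Of 930 genes nested in a host gene on the opposite strand without a shared exon, 930 had no more counts than their host in all 4 libraries, so the deposited counts cover whole gene spans on both strands and overlapping genes share reads. SOD2 has a pair of overlapping IDs, of which the one with fewer counts was used.

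The test was edgeR 4.0.16 under R 4.3.3 (counts scaled by TMM and kept by filterByExpr with minimum count 10 and minimum total 15, quasi-likelihood F test on line alone, Benjamini-Hochberg adjustment over 30952 genes at 0.05). The SE is the absolute log2 fold change divided by the square root of F. CPM uses TMM-scaled library sizes. No library is a copy of another: the chi-square over its degrees of freedom was 18.9 between reporter-positive and 36.8 between reporter-negative libraries. The fit was also run on counts simulated with planted changes and the dispersions estimated from these same libraries, and its outcome is not given here. Such a run cannot tell whether libraries that may be technical replicates give sound calls. Alternatives tried were DESeq2 1.42.0, limma-voom (limma 3.58.1), scaling by RLE or by total counts, no filter or one of 1 CPM in 2 libraries, a block on library number, each library left out in turn and a wider NF-kappaB motif. Taking off the counts of an overlapping gene was added after seeing the data. Tables used Python 3.11.15 with pandas 2.3.3.

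The genes and lists were chosen with earlier results of these data known. Genes named are the 10 of the set, up to 4 per list that passed with the smallest adjusted p (or the 2 with the highest CPM where none was called), the nearest protein-coding neighbour on each side of a cluster, neighbours that passed with at least a 2-fold difference, and the 5 genes most like IL1B. MYD88, IRAK1, IRAK4, TRAF6, NLRP3, GSDMD, PYCARD, PYCARD-AS1, NFKBIZ, CCL2, XIAPP3, NT5DC4, IL18RAP and IL1R1-AS1 were named after their values were seen.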

Additional observations from a re-analysis of the deposited data

How the results depend on the processing

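The 8 tested genes of the set kept their direction under each alternative that gave a value, IL33 being left out by the filter at 1 CPM, with log2 fold changes of 3.97 to 4.29 for IL1B, 2.08 to 2.18 for IL1A, 0.79 to 1.16 for IL1R1 and 0.97 to 1.23 for IL1RL1. IL1RL1 lost its call with DESeq2 and without the reporter-negative library numbered 1, which left 6 of the set called, against 7 in each other fit that leaves out a library. Total count scaling gave 2270 higher genes over the whole table, 1 higher and 2 lower among the further receptor genes, 3 higher and 8 lower among the signalling genes and 2 higher among the ligand cluster's neighbours. DESeq2 gave 1 higher receptor gene, 3 lower maturation genes and 1 lower ligand cluster neighbour. The filter at 1 CPM and taking off overlapping genes each left 1 higher receptor gene. With the wider NF-kappaB motif 5 of the genes held a match, against 0 with the consensus. Leaving out a library gave 2333 to 4704 higher and 2025 to 4457 lower genes in all, both lowest without the reporter-negative library numbered 1. It gave 1 to 2 higher receptor genes, 3 to 6 higher and 2 to 8 lower signalling genes, 2 to 5 lower maturation genes, 0 to 1 lower induced genes, 1 to 4 higher and 0 to 3 lower ligand cluster neighbours, and 0 to 1 lower receptor cluster neighbours, the last without the reporter-negative library numbered 1. A replicate block on the library number called 4175 higher and 4051 lower genes and the same number of the set, 7. The differences between libraries 1 and 2 correlated at -0.0258 between the lines, so no effect of library number shared by the lines was seen. Whether libraries of the same number were handled together is not stated in the labels, and the correlation cannot tell. The cause of these shifts was not tested. In a fit without a library, the line left with 1 library is assumed to vary like the other. Depth limits IL1RN, IL1R2 and IL33, with at most 12 counts in any library.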
